A study of Brassica rapa with 8 samples.

Results

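The genes described here had a higher level after IPA-Ala and after IBA-Ala than in both the untreated control and the IAA-Ala treatment. They number 66 of the 46250 genes listed for *Brassica rapa*. RNA was sequenced from whole seedlings of Chinese cabbage (ssp. *pekinensis*, cv. Cantonner Witkrop) in 8 libraries, 2 biological replicates for each of 4 groups. Seedlings aged 1 day were laid on 1% agar that was free of hormone (control) or held IAA-Ala, IPA-Ala or IBA-Ala at 0.01 mM. Every group was kept in continuous light at 22 °C, for 24 h by the treatment protocol, whereas the titles of the samples give 3 h. The labels call the tissue seedling, and this was not checked against marker genes, since the deposited tables do not pair identifiers with gene names.

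The conjugates join an auxin to the amino acid alanine. Indole acetic acid (IAA) is the main natural auxin of plants, and in IPA-Ala and IBA-Ala the acid side chain is lengthened to that of indole propionic or indole butyric acid. An amide conjugate is regarded as a stored auxin that hydrolases can set free again. Free auxin is bound by TIR1/AFB receptors, which leads to the breakdown of Aux/IAA repressors and to transcription of early auxin genes. Among these are the Aux/IAA genes themselves, the GH3 genes, whose enzymes couple free auxin to amino acids, and the SAUR genes, which encode small proteins tied to cell expansion. IBA is also known in Arabidopsis as a precursor that is shortened to IAA in the peroxisome.

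The members were selected on their measured levels, so that the differences from the control and from IAA-Ala given below describe the selection and were not tested. The level is the count of a gene relative to all counts on genes in that library, scaled as CPM, without correction for gene length. A gene needed at least 20 counts in each of the 4 IPA-Ala and IBA-Ala libraries, which 22909 genes had. Its lowest CPM in these 4 libraries had to be at least 1.5 times its highest CPM in the 4 control and IAA-Ala libraries, which left 108 genes. A total of 42 of them were dropped because their mean after IAA-Ala was at least 1.5 times the control mean. The 66 genes that stayed are 0.288% of the genes with enough counts. Genes that the study names in its figures on auxin genes were to be left out, and 0 of the 42 genes named there had met the limits. For comparison, 400 genes were higher after all 3 conjugates, with the lowest of the 6 treated libraries at least 1.5 times the higher control, and 81 genes were higher after IAA-Ala than in all the other libraries by the same factor. By their definitions neither of these sets can share a gene with the 66 members.

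**Figure D1:**
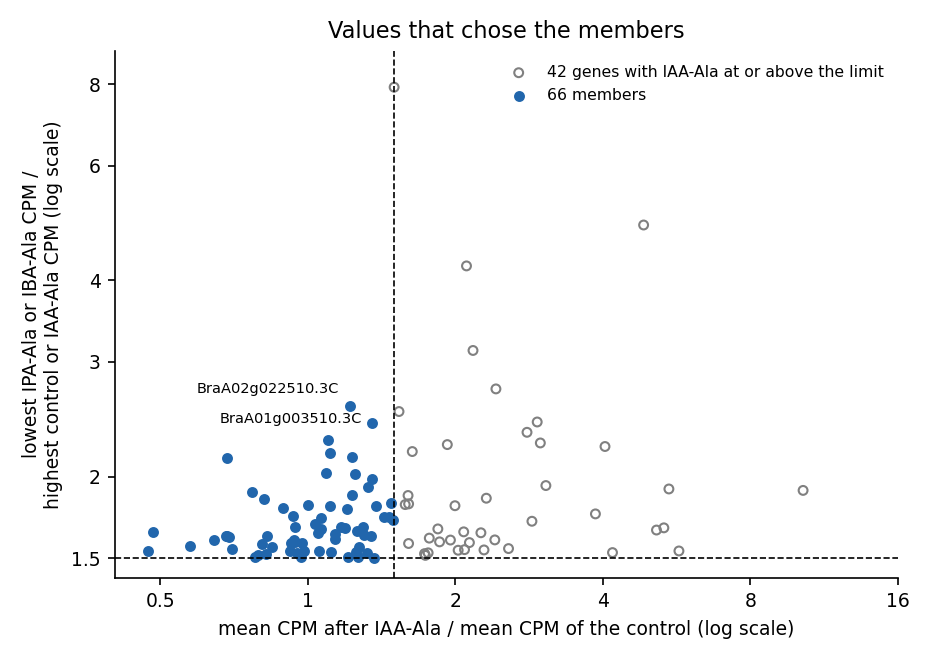
Both values that chose the members, for the 108 genes whose lowest IPA-Ala or IBA-Ala level was at least 1.5 times the highest level in the control and IAA-Ala libraries. The vertical axis is that ratio, the horizontal axis is the mean IAA-Ala level over the mean control level, both are log scales and the dashed lines mark 1.5. Most of the 66 members (filled) lie just above the lower line, and the gene with the largest ratio, 7.91, lies on the vertical line and is no member.

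The limits cut through a dense range of values. The ratio of the lowest level after the longer conjugates to the highest level elsewhere lay between 1.504 and 2.57 in the members, with a median of 1.64. A total of 25 members were within 0.1 above the limit and 33 genes within 0.1 below it. The members nearest the limit had ratios of 1.504, 1.506 and 1.508, and the genes next to them outside had 1.498, 1.492 and 1.485. For the ratio of the IAA-Ala mean to the control mean, the last members stood at 1.494 and 1.480 and the first genes outside at 1.5004 and 1.535. The gene at 1.5004 was BraA08g023500.3C. It is named because of its values and had the largest ratio of all 108 genes. It had 0 and 4 counts in the control replicates, 4 and 3 with IAA-Ala, 33 and 40 with IPA-Ala and 111 and 66 with IBA-Ala. Its exclusion rests on 7 counts after IAA-Ala against 4 in the control. The fewest counts that a member had in a library treated with a longer conjugate were 20, 22 and 23. Of the genes that met both ratios but not the count, the nearest had 18.

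The choice of the set also rests on single libraries. When control replicate 1 was left out of the rule, 452 genes met it, and 39 of the 66 members were among them. Without IAA-Ala replicate 1, 149 genes met it, with 63 of the members. The number was 129 without IPA-Ala replicate 1 and 117 without IBA-Ala replicate 2. Leaving out a library of a longer conjugate only loosens the rule, so that all 66 members had to stay in both cases. Control replicate 1 had the highest of the control and IAA-Ala levels in 34 of the members, and control replicate 2 had the lowest of all 8 levels in 39. Part of this order was general, since control replicate 1 was above replicate 2 in 58.2% of all genes with enough counts, beside 60 of the 66 members. The 2 control libraries were further apart than the replicates of the other groups, and their chi-square per gene was 42.8 against 21.1 to 21.9, where counting error alone gives about 1. With library sizes scaled by TMM, 52 genes met the rule, 50 of them members.

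The rule fixes a ratio of the group means of at least 1.5, and the values above that describe the selected genes. The mean level over the 4 IPA-Ala and IBA-Ala libraries was between 1.84 and 5.72 times the mean over the control and IAA-Ala libraries, with a median of 3.13, against a median of 1.04 over all 22909 genes with enough counts. It was at least 2 times as high in 62 members and at least 4 times as high in 14. The median level of the members was 2.85 and 1.53 CPM in the control replicates, 2.33 and 2.47 with IAA-Ala, 6.32 and 7.29 with IPA-Ala and 9.56 and 7.31 with IBA-Ala. In whole seedlings, a change in the share of the cells that express a gene and a change in its RNA per cell cannot be told apart.

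**Figure D2:**
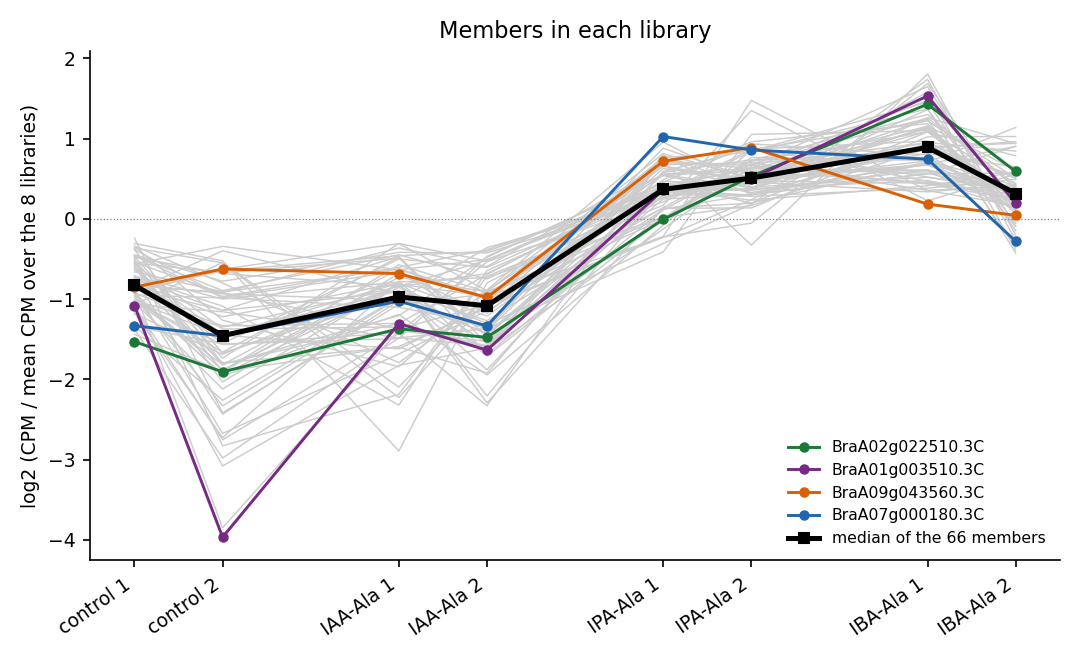
Level of each of the 66 members in each of the 8 libraries, as the log2 of its CPM over its own mean CPM, with one grey line per member, coloured lines for 4 named members and black squares for the median over members. The lines rise from the control and IAA-Ala libraries to the IPA-Ala and IBA-Ala libraries, as the rule requires, with control replicate 2 lowest and IBA-Ala replicate 1 highest in the median.

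After IAA-Ala the rule keeps the mean of a member below 1.5 times the control mean and sets no lower limit. The ratio of the means lay between 0.472 and 1.49, with a median of 1.06. It was below 0.5 in 2 members, and 29 members had a lower mean after IAA-Ala than in the control. The ranges of the 2 IAA-Ala and the 2 control libraries overlapped in 52 members (78.8%), beside 53.1% of all genes with enough counts. Both IAA-Ala values lay between the control values in 20 members (30.3%), beside 18.5%. The control replicates, which set this range, were themselves further apart in the members, with a median ratio of replicate 1 to replicate 2 of 1.44 against 1.09. The limit on the IAA-Ala mean also favours such overlap in the members, and the other genes did not have to meet it. Thus these shares describe the selection.

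BraA02g022510.3C had the largest ratio among the members. Its level was 2.11 and 1.62 CPM in the control replicates, 2.36 and 2.19 with IAA-Ala, 6.06 and 8.80 with IPA-Ala and 16.4 and 9.17 with IBA-Ala. The 4 lower libraries lay close together, and the lowest level after a longer conjugate was 2.57 times the highest of them. Between the longer conjugates, both IBA-Ala replicates were above both IPA-Ala replicates, by a log2 fold change of 0.75 ± 0.33 (SE) that did not pass edgeR's quasi-likelihood test (adjusted p = 0.630). It was 0.30 without IBA-Ala replicate 1 and 1.10 without IBA-Ala replicate 2. What the gene encodes is not given in the sources used here, and the same holds for the other members.

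BraA01g003510.3C was second, with a ratio of 2.42. It had 7.12 and 0.963 CPM in the control replicates, 6.10 and 4.84 with IAA-Ala, 19.3 and 21.3 with IPA-Ala and 43.5 and 17.2 with IBA-Ala. The replicates agreed closely after IAA-Ala and IPA-Ala and lay far apart in the control and after IBA-Ala. By its number it lies directly between *SAUR-like 1* (BraA01g003500.3C) and *SAUR-like 2* (BraA01g003520.3C). These gene names rest on similarity to Arabidopsis. Neither of these is a member.

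*SAUR-like 1* had 3.82 and 1.38 CPM in the control, 10.4 and 6.04 with IAA-Ala, 15.4 and 24.6 with IPA-Ala and 39.96 and 14.99 with IBA-Ala. Its 4 levels after the longer conjugates were above the other 4, with a ratio of 1.44 that is under the limit. *SAUR-like 2* had 5 and 0 counts in the control replicates, 7 and 3 with IAA-Ala, 44 and 51 with IPA-Ala and 92 and 19 with IBA-Ala. A count of 0 allows up to 3 counts, or 0.181 CPM in control replicate 2, and covers counting error only. Its ratio was 2.86, and it missed the rule by its 19 counts in IBA-Ala replicate 2 and by its mean after IAA-Ala, 1.81 times that of the control. In all 3 consecutive genes the highest level was in IBA-Ala replicate 1 and the lowest in control replicate 2. The next gene up in number, BraA01g003530.3C, had 6, 4, 2 and 3 counts in the control and IAA-Ala libraries and 21, 11, 24 and 27 after the longer conjugates, and was too low for the rule. On the other side, BraA01g003490.3C ranged from 43.1 to 89.4 CPM with no such order, since the mean after the longer conjugates was 0.937 times the mean elsewhere. Both were named because of their place and after their values were seen. Reads that aligned at several places, 2432970 to 2881490 in each library, were not counted for any gene, and if these genes are near-identical in sequence their levels are uncertain.

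**Figure D3:**
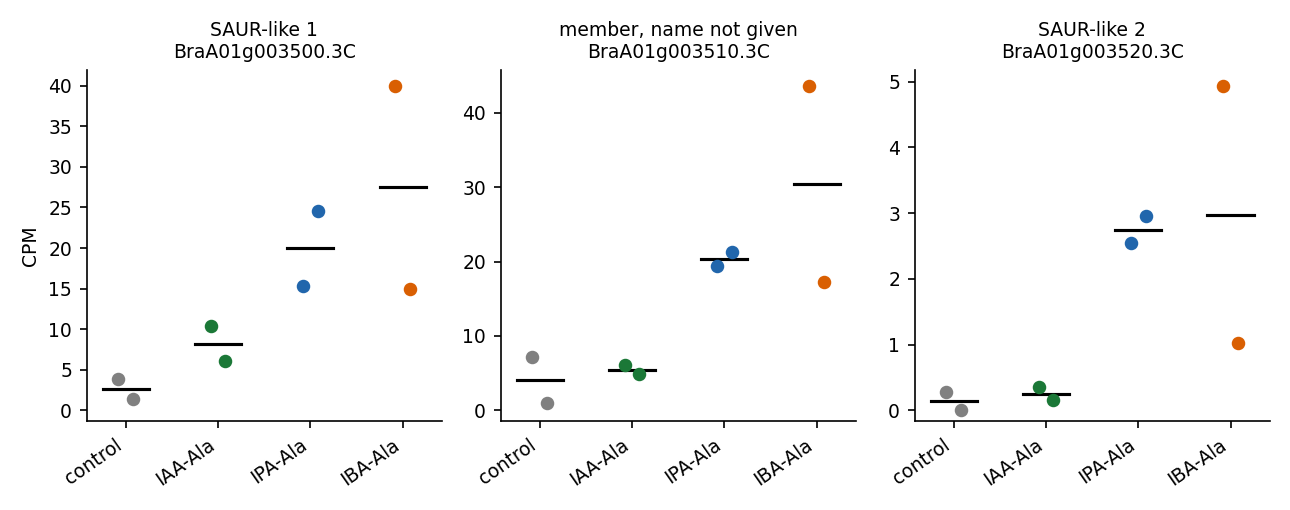
CPM of 3 genes with consecutive identifiers in the 8 libraries, with one point per library, the mean of the 2 replicates as a bar, and a vertical axis of its own for each gene. The member in the middle and *SAUR-like 1* and *SAUR-like 2* beside it were higher in all 4 IPA-Ala and IBA-Ala libraries than in the other 4, and the IBA-Ala replicates lie furthest apart.

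Such a row of neighbours was not general among the members. They carry the labels of all 10 chromosomes, with 12 each for A03 and A09, 8 for A06, 7 for A02, 6 each for A07 and A08, 5 for A01, 4 for A04 and 3 each for A05 and A10. A03 and A09 each held 18.2% of the members, beside 14.8% and 14.3% of all genes with enough counts. For A05 and A10 it was 4.55% each, beside 9.46% and 7.79%. These shares were not tested. No member was next to another in identifier order, and the closest were 51 places apart in the list. Of the 132 genes next to a member, 84 had enough counts, and 6 of these, 7.14%, had all 4 levels after the longer conjugates above the other 4. Over all genes with enough counts this share was 5.62%. The median ratio of the means in the neighbours was 1.05.

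The level differed widely among the members. The mean over the 4 IPA-Ala and IBA-Ala libraries lay between 1.84 and 334 CPM, with a median of 7.69 against 14.9 over all genes with enough counts. It was below 10 CPM in 38 members, between 10 and 100 in 25 and above 100 in 3. Since CPM are not corrected for gene length, these values rank the genes by reads and not by transcripts. The highest was that of BraA01g002770.3C, which was named after its values were seen. It had 161 and 70.3 CPM in the control, 114 and 106 with IAA-Ala, 367 and 414 with IPA-Ala and 309 and 246 with IBA-Ala. Thus both IPA-Ala replicates were above both IBA-Ala replicates in this gene.

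The rule does not compare IPA-Ala with IBA-Ala. It does use the same 4 libraries, each of which had to be high, so that the members were not free to differ as other genes were, and the shares over all genes are given as a description. In edgeR's quasi-likelihood fit, adjusted by Benjamini-Hochberg over 26940 genes, 0 of the 66 members and 0 of all genes (0%) had an adjusted p below 0.01, the threshold of the study. The smallest adjusted p was 0.370 among the members and 0.205 among all genes. DESeq2 also called 0 members, and it called 91 of 25352 genes (0.359%). Without adjustment, 6 members had a p below 0.05 in edgeR and were higher after IBA-Ala, where 3.55% of all genes were, and 2 were lower, where 4.41% of all genes were. In either direction that is 8 of 66 members beside 7.97% of all genes. The intervals were wide at 2 replicates. The 95% interval of the log2 fold change had a median half-width of 0.75, and it stayed between −1 and 1 in 27 members, and in the other 39 it reached a difference of more than 2-fold.

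Most members were somewhat higher after IBA-Ala than after IPA-Ala, but this turned with 1 library. The median log2 fold change of IBA-Ala minus IPA-Ala over the members was 0.17, beside 0.00294 over all genes tested, and it was above 0 in 42 of 66 members beside 50.4% of all genes. Without IBA-Ala replicate 1 the median was −0.20 and 21 members were above 0, and without IBA-Ala replicate 2 it was 0.38 with 50 above 0. IBA-Ala replicate 1 had the highest level of all libraries in 39 of the 66 members. It was the highest of these 4 libraries in 33.5% of all genes with enough counts. It was above replicate 2 in 54 of the 66 members, against 54.4% of all these genes, with a median ratio of 1.34 against 1.03. In the control, replicate 1 was above replicate 2 in 60 of the 66 members, against 58.2% of all these genes. After IAA-Ala and IPA-Ala, replicate 1 was the higher in 41 and 21 of the 66 members, against 47.1% and 44.4%. Of the reads aligned to 1 place, 19.3% were assigned to no gene in control replicate 1 and 16.7% in replicate 2. In the IBA-Ala replicates these shares were 18.4% and 17.4%. The part of such reads in the levels of the members was not tested.

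**Figure D4:**
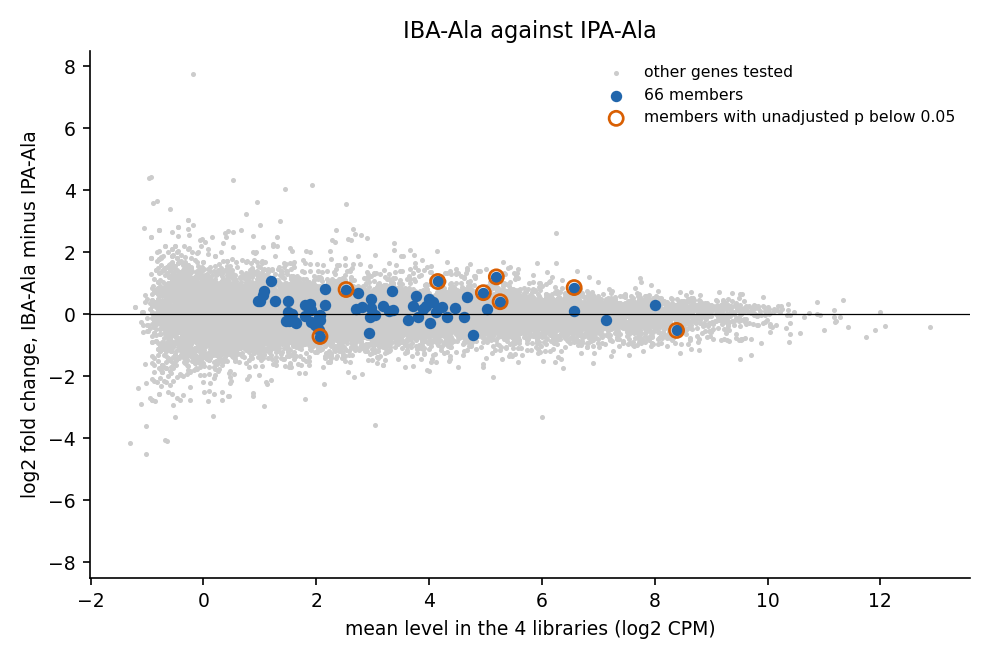
Log2 fold change of IBA-Ala minus IPA-Ala against the mean level for the 26940 genes tested, with the 66 members as filled points and rings around the 8 members with an unadjusted p below 0.05. The members lie on both sides of 0, with a median of 0.17, and none passed the threshold after adjustment.

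By the order of the libraries, the members fell into 3 groups. In 44 of them the IPA-Ala and IBA-Ala replicates overlapped. Both IBA-Ala replicates were above both IPA-Ala replicates in 15 members, or 22.7%, beside 21.2% of all genes with enough counts, and below them in 7, or 10.6%, beside 17.3%.

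Among the members higher after IBA-Ala, BraA09g056830.3C had the smallest adjusted p and BraA10g012990.3C the largest log2 fold change, and both were named after their values were seen. BraA09g056830.3C had 35.9 and 22.2 CPM in the control, 34.9 and 12.4 with IAA-Ala, 66.6 and 66.8 with IPA-Ala and 123.4 and 123.8 with IBA-Ala. The replicates of both longer conjugates were nearly identical here, and the log2 fold change between the treatments was 0.86, with a 95% interval from 0.49 to 1.24 (edgeR, adjusted p = 0.370). Over the alternatives its adjusted p lay between 0.0167 and 0.841 in edgeR and DESeq2. BraA10g012990.3C, whose ratio of 1.504 was the lowest among the members, had 20.5 and 23.1 CPM with IPA-Ala and 77.1 and 26.1 with IBA-Ala, above 6.50 to 13.6 in the other 4 libraries. Its log2 fold change of 1.21 ± 0.42 (SE) came with an adjusted p of 0.543 in edgeR and was 0.25 without IBA-Ala replicate 1 and 1.77 without IBA-Ala replicate 2.

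The members with the most negative log2 fold change were BraA09g043560.3C and BraA07g000180.3C. BraA09g043560.3C had 1.60 and 1.87 CPM in the control, 1.79 and 1.46 with IAA-Ala, 4.73 and 5.33 with IPA-Ala and 3.27 and 2.97 with IBA-Ala. Both IBA-Ala replicates lay below both IPA-Ala replicates, and the log2 fold change of −0.72 ± 0.30 (SE) had an adjusted p of 0.610 in edgeR. BraA07g000180.3C had 6.84 and 6.26 CPM in the control, 8.45 and 6.82 with IAA-Ala, 35.04 and 31.20 with IPA-Ala and 28.8 and 14.2 with IBA-Ala. Its log2 fold change was −0.66 ± 0.31 (SE) with an adjusted p of 0.640 in edgeR, and −0.25 without IBA-Ala replicate 2. It was −1.23 without IBA-Ala replicate 1, so that its size was set by which IBA-Ala library was used.

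The 12 auxin genes that the study names with identifiers show how known auxin genes were ordered beside these members. The study chose them on the same libraries, so that they are not independent evidence of a direction. All 12 were tested in edgeR, and none of them is a member. Between IPA-Ala and IAA-Ala, 0 of the 12 and 0 of 26762 genes (0%) passed 0.01 after adjustment in edgeR. At an adjusted p below 0.05 there was 1 of the 12, beside 2.34% of all genes. Without adjustment, 6 of the 12 were below 0.05, 3 higher and 3 lower after IPA-Ala, beside 22.7% of all genes. Between IBA-Ala and IAA-Ala, 0 of the 12 and 0 of 26952 genes (0%) were called at 0.01. At an adjusted p below 0.05 there were 2, 1 in each direction, beside 6.86% of all genes, and without adjustment 5 were below 0.05, 4 higher and 1 lower, beside 27.2%. DESeq2 at an adjusted p below 0.01 called 1 and 3 of the 12, beside 4.6% and 8.72% of the genes to which it gave an adjusted p. The called genes were *IAA29* in the first comparison and *YDK1*, *SAUR-like 1* and *UGT74E2* in the second. DESeq2 gave *SAUR-like 2* and *C-S lyase* no adjusted p in either comparison, so that they could not be called.

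For IPA-Ala minus IAA-Ala, the lowest log2 fold changes were those of the conjugating enzymes and of a repressor. *YDK1*, a GH3 enzyme that couples IAA to amino acids, had 0.513 and 1.02 CPM in the control, 127.5 and 101.2 with IAA-Ala, 4.56 and 30.0 with IPA-Ala and 27.3 and 50.1 with IBA-Ala. It was thus highest after IAA-Ala, with a log2 fold change of −2.82 ± 0.62 (SE) for IPA-Ala minus IAA-Ala (edgeR, adjusted p = 0.0550) and of −1.66 ± 0.30 for IBA-Ala minus IAA-Ala (edgeR, adjusted p = 0.0288). The first of these was −2.04 without IPA-Ala replicate 1 and −4.71 without IPA-Ala replicate 2. *GH3.3*, of the same family, had 165.1 and 253.6 CPM with IAA-Ala, 22.1 and 85.8 with IPA-Ala and 107.0 and 180.9 with IBA-Ala, against 11.7 and 6.14 in the control. Its log2 fold change from IAA-Ala was −2.05 with IPA-Ala (edgeR, adjusted p = 0.0687), between −3.30 and −1.40 with each replicate left out. With IBA-Ala it was −0.63 (edgeR, adjusted p = 0.216), between −1.08 and −0.28 with each replicate left out. *IAA29*, an Aux/IAA repressor, had 22.9 and 12.5 CPM with IAA-Ala, 4.16 and 8.05 with IPA-Ala and 10.6 and 21.6 with IBA-Ala, against 0.684 and 0.602 in the control. Its IPA-Ala and IAA-Ala replicates did not overlap, while those of IBA-Ala and IAA-Ala did.

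The highest log2 fold changes in both comparisons with IAA-Ala were those of the *SAUR-like* pair beside BraA01g003510.3C. *SAUR-like 2* had a log2 fold change of 3.29 ± 0.62 (SE) for IPA-Ala minus IAA-Ala (edgeR, adjusted p = 0.0428) and of 3.39 ± 1.01 for IBA-Ala minus IAA-Ala (edgeR, adjusted p = 0.0796), which was 1.89 without IBA-Ala replicate 1. *SAUR-like 1* had 1.19 ± 0.32 and 1.63 ± 0.47, for which edgeR gave an adjusted p of 0.0835 and 0.0752. The second of these was 0.79 without IBA-Ala replicate 1. It was called by DESeq2 (adjusted p = 0.00202) and with the replicate block in edgeR (adjusted p = 0.000824). That block called 2201 genes in all for IBA-Ala minus IAA-Ala, among them *YDK1*, *SAUR-like 2* and *UGT74E2*. The labels do not say that replicate numbers pair libraries. *SAUR-like 3* and *SAUR-like 4* were nearer to 0. The log2 fold change from IAA-Ala was 0.13 with IPA-Ala and 0.57 with IBA-Ala in *SAUR-like 3*, and 0.42 and 0.18 in *SAUR-like 4*. The 0.13 and the 0.18 fell to about 0 when IPA-Ala replicate 2 and IBA-Ala replicate 1, respectively, were left out. *UGT74E2*, an auxin glucosyltransferase that acts on IBA in Arabidopsis, had 15.6 and 10.4 CPM with IAA-Ala, 11.1 and 17.9 with IPA-Ala and 41.0 and 27.7 with IBA-Ala, against 6.27 and 7.34 in the control. Its log2 fold change was 1.296 ± 0.274 for IBA-Ala minus IAA-Ala (edgeR, adjusted p = 0.0403) and 0.07 ± 0.29 for IPA-Ala minus IAA-Ala (edgeR, adjusted p = 0.918). The latter lay between −0.28 and 0.39 with each replicate left out. For IBA-Ala minus IPA-Ala it was 1.22 ± 0.28 (edgeR, adjusted p = 0.451).

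**Figure D5:**
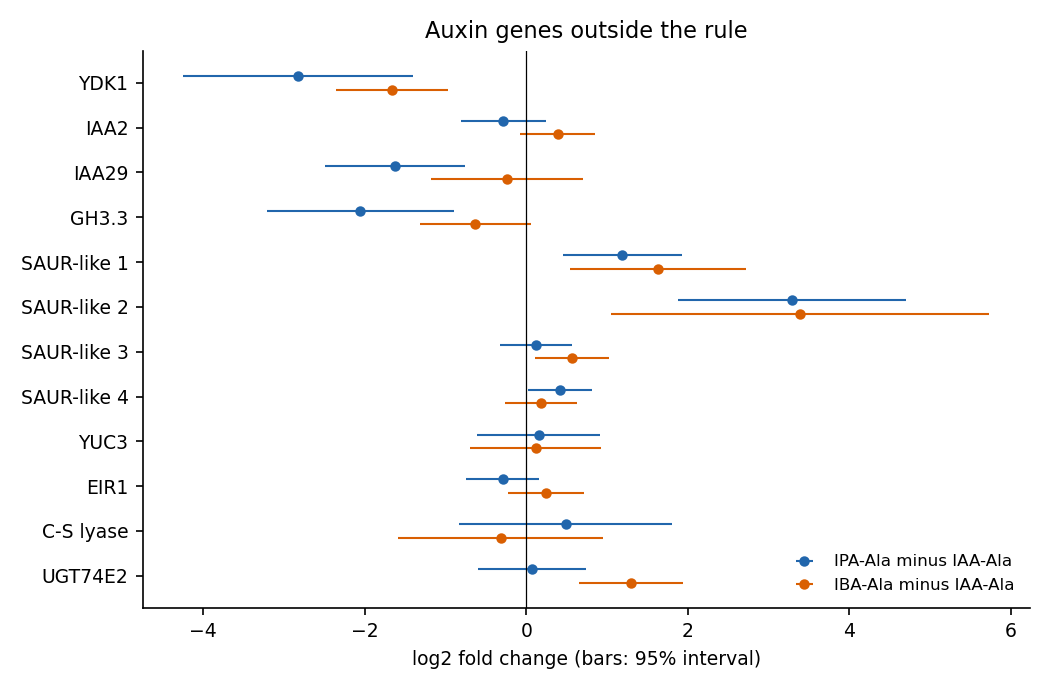
Log2 fold changes of the 12 auxin genes for IPA-Ala minus IAA-Ala (blue) and IBA-Ala minus IAA-Ala (orange), with bars for the 95% interval, each from a fit of 4 libraries that share the IAA-Ala replicates. *SAUR-like 1* and *SAUR-like 2* lie above 0 in both, *YDK1* lies below 0 in both, and the interval of *UGT74E2* spans 0 for IPA-Ala and lies above 0 for IBA-Ala.

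Of the remaining auxin genes, *IAA2*, *YUC3*, which acts in auxin synthesis, *EIR1*, an auxin efflux carrier, and *C-S lyase* had log2 fold changes between −0.31 and 0.49 in these comparisons. Between IBA-Ala and IPA-Ala directly, 0 of the 12 passed 0.01 or 0.05 after adjustment in edgeR. DESeq2 gave *UGT74E2* an adjusted p of 0.0211 and called 0 of the 12 at 0.01. Without adjustment, 5 were below 0.05 in edgeR, all higher after IBA-Ala, beside 3.55% of all genes in this direction. They were *IAA2*, *IAA29*, *GH3.3*, *EIR1* and *UGT74E2*. The study had found *EIR1* and *UGT74E2* changed against the control only after IBA-Ala. The choice of the list thus favours this direction, and the share is a description.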

How the data were processed

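RNA-seq data of 8 libraries were used, grouped by the treatment in the sample labels. The deposited values are raw counts per gene, which the authors obtained by clipping 9 bases from each read of about 50 bp, aligning to the Chiifu genome with STAR 2.7.1a and counting by strand with HTSeq 1.99.2. The submitters' processing notes also name DESeq2 1.34.0 and R 4.2.0. Tables of counts for each pair of groups were not used. The depth was 16616214 to 19521990 counts on genes. A further 15.9% to 19.3% of the reads aligned to 1 place had no gene and stayed out of all totals. Of the identifiers, 0 matched the reference table of names, and no positions or sequences are given.

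The members and lists were chosen with earlier results of these data known. CPM were computed from the totals on genes. Each pair of treatments (3 pairs) was fitted on its 4 libraries with edgeR 4.0.16 in R 4.3.3 (filterByExpr with a minimum count of 10 and a minimum total of 15, TMM, quasi-likelihood test, Benjamini-Hochberg adjustment, called at 0.01), which was also tested on simulated data. The log2 fold changes carry a prior count of 0.125, and the SE is the log2 fold change without it divided by the square root of F. Alternatives were DESeq2 1.42.0, RLE, no filter, all 8 libraries, a replicate block, an adjusted p of 0.05, other limits of the rule and each replicate left out. The rule for named genes was the 2 members with the largest ratio, the 2 with the most negative log2 fold change after IBA-Ala, and the 12 auxin genes. Replicates are labelled only as biological replicates, and p-values weigh a difference between groups against a spread estimated from these libraries. Groups of 2 allow no test for outliers. Figures were drawn with matplotlib 3.10.9 and tables with pandas 2.3.3.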

Additional observations from a re-analysis of the deposited data

How the results depend on the processing

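The set depends on its limits. A fold limit of 2 left 8 genes, and with each replicate left out of the rule in turn 72 to 452 genes met it, while a minimum of 10 or 50 counts gave 86 or 50. Between IBA-Ala and IPA-Ala, 0 members were called under each alternative with every replicate kept. The limit of 0.05 was used there with the main edgeR fit only. DESeq2 gave 1 member, BraA09g056830.3C, an adjusted p below 0.05 (0.0167). The median log2 fold change of the members kept its sign except when IBA-Ala replicate 1 was left out (−0.20 to 0.38 with each replicate left out, 0.10 with the replicate block). That of BraA01g003510.3C also turned without this library (−0.25 to 1.05). Also near 0 and of either sign with each replicate left out were *SAUR-like 3* (−0.0066 to 0.24) and *UGT74E2* (−0.28 to 0.39) for IPA-Ala minus IAA-Ala and *SAUR-like 4* (−0.00093 to 0.36) for IBA-Ala minus IAA-Ala. For the auxin genes, the number between IPA-Ala and IAA-Ala was 1 with DESeq2 and 1 with a limit of 0.05. Between IBA-Ala and IAA-Ala it was 3 with DESeq2, 4 with the replicate block, which called 2201 genes in all, and 2 with a limit of 0.05. The causes were not tested. The labels do not say that replicate numbers pair libraries, and the replicate differences correlated across 21780 genes at −0.14 (IPA-Ala and IBA-Ala), −0.21 (IAA-Ala and IPA-Ala) and 0.17 (IAA-Ala and IBA-Ala). A block on crossed numbers, added after seeing the data, called 5 auxin genes and 1248 genes in all between IPA-Ala and IAA-Ala, and 0 auxin genes and 0 members between IBA-Ala and IPA-Ala. The largest difference among the members, 1.21 on the log2 scale in BraA10g012990.3C, was not called. It was 0.25 without IBA-Ala replicate 1 and 1.77 without IBA-Ala replicate 2.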

Other observations

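The opposite order was rarer with all 8 libraries in the rule. With the same limits turned round, 14 genes had their lowest control or IAA-Ala level at least 1.5 times their highest level after IPA-Ala or IBA-Ala, and a mean after IAA-Ala above the control mean divided by 1.5, among 22244 genes with at least 20 counts in each control and IAA-Ala library. The mean over the control and IAA-Ala libraries was between 1.73 and 4.97 times the mean after the longer conjugates in these genes, with a median of 2.14. They were found by their levels, and no test was made. The count was not repeated with single libraries left out, on which the number of members depended.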
